A study of Mus musculus with 4 samples.

Results

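Collagen genes other than those of collagen VI were followed in quiescent primary mouse embryonic fibroblasts (MEFs) with and without Phf2, a histone demethylase family protein that binds H3K4me3. Genes were taken when their symbol in the count table was Col, a number, a and a number, and the collagen VI chains were then set aside. This gave 38 of the 24391 genes in the table. They comprised 11 genes of fibrillar collagens, 8 of basement membrane collagens, 9 of FACIT collagens (fibril-associated collagens with interrupted triple helices) and 10 others.

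Of 4 RNA-seq libraries, 2 were WT and 2 Phf2 KO, each labelled as replicate 1 or 2. All 4 came from Phf2 flox/flox, ERCre/+ cells, in which the CreERT2 recombinase is made from the Rosa26 locus and is active only when 4-hydroxytamoxifen (4-OHT) is bound. The Phf2 KO libraries were labelled Tamoxifen and the WT libraries as without it. By the study's methods, cells from E13.5 embryos were grown to confluence and arrested, and deletion used 0.5 µM 4-OHT for 7 days in Opti-MEM with charcoal-treated serum. The loss of Phf2, the activity of Cre and the presence of 4-OHT therefore cannot be told apart. No label names separate animals, so p-values measure the spread between these libraries.

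Collagens are trimers of chains that wind around each other as a triple helix. Fibrillar collagens form the tensile fibrils of connective tissue, collagen IV forms the sheet-like network under epithelia and around vessels, and FACIT collagens sit on the surface of fibrils. Fibroblasts are a main source of collagens I, III and V, whereas collagens II, IX, X and XI are known best from cartilage.

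The libraries held between 21094743 and 26094268 counts. Levels are given as CPM, counts scaled by TMM to a common library size, and a count of 3 corresponded to between 0.116 and 0.145 CPM. Phf2 itself had 3244 (replicate 1) and 3680 (replicate 2) counts in WT, compared with 1454 (replicate 1) and 2158 (replicate 2) in Phf2 KO, on reads from the whole gene. The libraries split by replicate number: Xist was counted 10042 and 8336 times in the 2 libraries numbered 1 and 3 and 12 times in those numbered 2, and Ddx3y 6 and 10 against 1271 and 1295 times. All 9 fibroblast markers listed passed the expression filter. Macrophage markers were also present, with a summed level of 3389 CPM (WT) and 3908 CPM (Phf2 KO) in libraries numbered 1 against 749 and 1181 CPM in those numbered 2. Paired values of a group are given from here on with replicate 1 first. All 12 of them were lower in replicate 2 than in replicate 1 in both groups. In the fit with the number as a term described with the first comparison, 6 of the 12 macrophage markers were called higher in Phf2 KO (5.77% of all genes were), and 2 of the 9 fibroblast markers, Lum and Postn, lower (5.20% of all genes were). The fibroblast markers summed to 28134 and 24338 CPM in WT and 22797 and 21882 CPM in Phf2 KO, and the part of these cell types in the collagen results was not tested. Endothelial, epithelial and skeletal muscle lists summed to at most 53.6 CPM in any library, and 2, 1 and 1 of their genes passed the filter. With the number in the fit, Kdr (endothelial) and Des (skeletal muscle) were called lower in Phf2 KO. Des had 53.1 and 23.5 CPM in WT and 32.0 and 14.1 CPM in Phf2 KO. Kdr had 18.3 and 8.94 CPM in WT and 12.5 and 5.62 CPM in Phf2 KO. The part of such cells in the collagen results was not tested either. Fewer cells of a type and less RNA per cell cannot be told apart in bulk libraries.

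Of the 38 genes, 34 passed the filter on low counts, among 13668 genes tested. The 4 that did not were Col9a1, a cartilage FACIT chain with between 2 and 6 counts per library, Col13a1, a transmembrane collagen with between 1 and 7, Col17a1, a collagen of epithelial hemidesmosomes with between 4 and 12, and Col22a1, a FACIT chain with 2 or 3. Their counts were low, in part below the limit that 3 counts set, and these genes were not tested for a difference. Col17a1 had 12 and 9 counts in WT and 4 and 7 in Phf2 KO. In Col9a1, Col13a1 and Col22a1 the groups overlapped.

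Levels spanned several orders of magnitude (the plot of CPM by library). Per kilobase of annotated exon, the mean over the 4 libraries was highest for Col1a1 at 3564 RPKM (CPM per kilobase), followed by Col1a2 at 1695, Col3a1 at 1331 and Col5a1 at 547. These are the chains of collagens I, III and V. The collagen IV chains Col4a2, at 438 RPKM, and Col4a1, at 384, came next, before Col5a2 at 289, Col12a1 at 190, Col8a1 at 133 and Col11a1 at 80.9. In each library Col1a1 was above Col1a2, Col1a2 above Col3a1, and Col3a1 above Col5a1, so that the order of these 4 did not change with genotype or replicate number. Col5a1 was above Col4a2 in both WT libraries, at 650 and 637 against 359 and 437 RPKM. In Phf2 KO the order per length was reversed and the levels lay closer, at 470 and 429 RPKM for Col5a1 and 484 and 474 RPKM for Col4a2. This order depends on the exon lengths used. In CPM, Col5a1 stayed above Col4a2 in both Phf2 KO libraries, at 3994 and 3643 against 3203 and 3140.

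**Figure D1:**
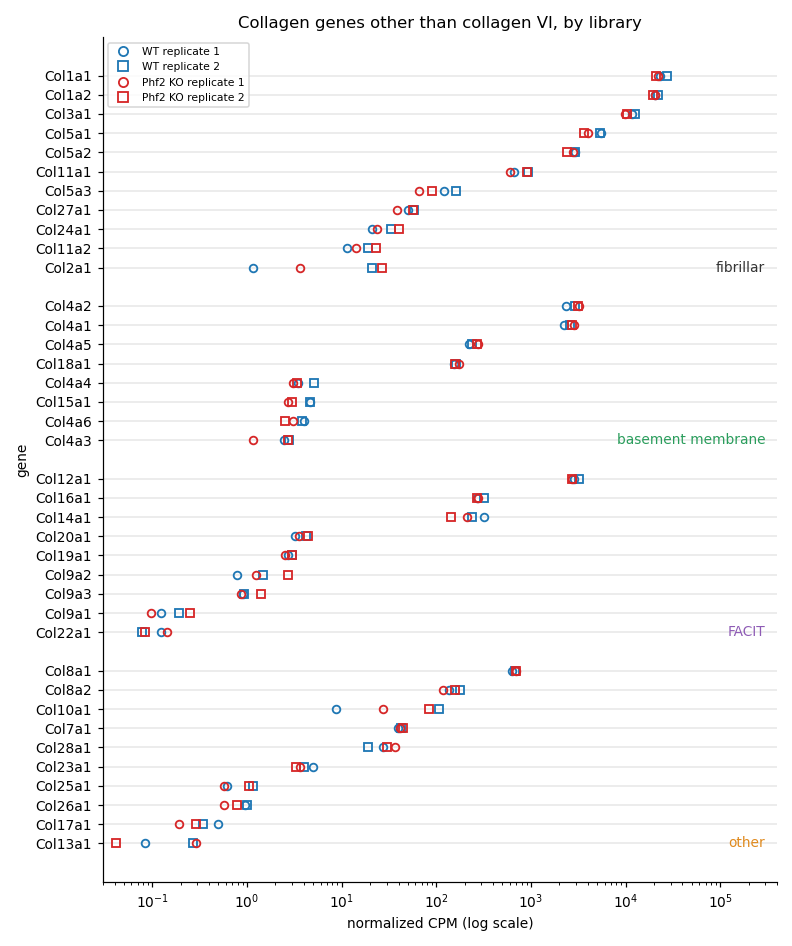
Level of each of the 38 collagen genes in each library, as TMM-normalized CPM on a log axis, with genes grouped by class and ordered by mean level. Points are single libraries of WT and Phf2 KO, and Col1a1 stands highest with between 21075 and 27594 CPM.

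The first comparison asked which collagen genes differed between Phf2 KO and WT. With genotype alone in the fit, none of the 34 passed edgeR's quasi-likelihood test at an adjusted p of 0.1, where 0.00% of all genes tested were called higher and 0.00732% lower. At an unadjusted p under 0.05, 1 collagen gene, Col4a5, was higher (background 1.54%) and 4 were lower, Col5a1, Col5a3, Col14a1 and Col15a1 (background 2.67%). The lower count was 1 without Phf2 KO replicate 1 and 2 without WT replicate 1. The higher count was 0 without either Phf2 KO library and 2 without WT replicate 2. DESeq2 called 0 higher and 2 lower, Col5a1 and Col5a3, where it called 0.0623% and 0.337% of all genes. The median log2 fold change of the 34 was -0.09, beside 0.01 over all genes, and 13 were above and 21 below 0. Both Phf2 KO libraries were below both WT libraries for 12 of the 34, or 35.3%, where all genes gave 18.0%. They were above for 5, or 14.7%, where all genes gave 15.5%.

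Because the libraries split by number, the ratio of Phf2 KO to WT was also taken within each number, and the fit was repeated with the number as a term, which left 1 residual degree of freedom. The SE and p of a gene in that fit therefore came mainly from a spread shared across genes. They say little about how far the gene's own ratios differed. With that term 5 collagen genes were called higher and 4 lower, or 14.7% and 11.8% of the 34, where 5.77% and 5.20% of all genes were called. The genes called lower were Col5a1, Col5a3, Col14a1 and Col15a1. Those called higher were Col2a1, Col4a5, Col9a2, Col10a1 and Col28a1. The labels do not say that libraries of one number share an embryo or a culture, so these calls rest on a pairing seen only in the counts.

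**Figure D2:**
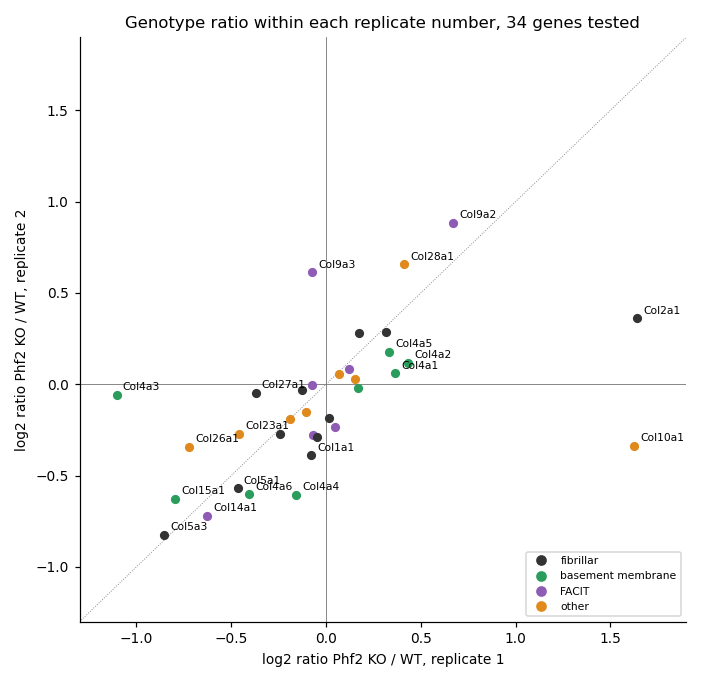
Log2 ratio of Phf2 KO to WT for the 34 collagen genes tested, replicate 1 on the horizontal and replicate 2 on the vertical axis, both from TMM-normalized CPM. Each point is a gene coloured by class, the dotted line marks equal ratios, and Col10a1 stands apart with 1.62 in replicate 1 and -0.34 in replicate 2.

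Among the fibrillar genes, the difference between the groups was widest against its spread for Col5a1 and Col5a3. These are chains of collagen V, which co-assembles with collagen I and limits the diameter of its fibrils. Col5a1, the chain common to most collagen V trimers, had 5518 and 5406 CPM in WT and 3994 and 3643 CPM in Phf2 KO. Both Phf2 KO libraries lay below both WT libraries, and the Phf2 KO mean was 69.9% of the WT mean. The log2 fold change was -0.52 ± 0.12 (SE), with an interval from -0.83 to -0.21, an unadjusted p of 0.00874 and an adjusted p of 0.999 in edgeR. With the replicate number in the fit the adjusted p was 0.00105, and DESeq2 without it gave 0.00112.

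Col5a3, a collagen V chain of more restricted expression, had 120 and 162 CPM in WT and 66.5 and 91.3 CPM in Phf2 KO. The groups did not overlap, and the log2 ratio was -0.86 within replicate 1 and -0.82 within replicate 2. The log2 fold change of -0.84 ± 0.22 (SE) was the lowest of the 34, with an unadjusted p of 0.0149 in edgeR and an adjusted p of 8.75e-21 with the number in the fit. DESeq2 without the number gave an adjusted p of 0.0984. The third chain, Col5a2, had 2910 and 2943 CPM in WT and 2811 and 2411 CPM in Phf2 KO. Its log2 fold change of -0.16 had an interval from -0.50 to 0.17, and it was called in neither fit. Per length, the ratio of Col5a1 to Col5a2 was 2.14 and 2.07 in WT, against 1.60 and 1.71 in Phf2 KO. That ratio was lower in both Phf2 KO libraries than in both WT libraries.

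Both collagen V genes called with the number in the fit are shown with the sequence around their start, the region where H3K4me3 is usually found, as 250 bases before and 50 after the start in RefSeq's mouse table (GRCm38.p6). Each was placed on NCBIM37 (mm9), the build of the counts, by an exact match to 1 position. The windows are chr2:27741695-27741994 on the plus strand for Col5a1 and chr9:20619462-20619761 on the minus strand for Col5a3. Capitals mark the GC box, searched as GGGCGG, and the CCAAT box, searched as those letters, each on either strand.
Col5a1: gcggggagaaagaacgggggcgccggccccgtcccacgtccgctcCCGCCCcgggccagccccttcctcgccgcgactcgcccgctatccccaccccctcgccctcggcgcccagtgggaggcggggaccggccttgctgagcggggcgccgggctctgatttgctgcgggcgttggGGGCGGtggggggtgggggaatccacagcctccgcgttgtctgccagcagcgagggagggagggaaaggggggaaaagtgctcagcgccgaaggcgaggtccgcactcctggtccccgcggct
Col5a3: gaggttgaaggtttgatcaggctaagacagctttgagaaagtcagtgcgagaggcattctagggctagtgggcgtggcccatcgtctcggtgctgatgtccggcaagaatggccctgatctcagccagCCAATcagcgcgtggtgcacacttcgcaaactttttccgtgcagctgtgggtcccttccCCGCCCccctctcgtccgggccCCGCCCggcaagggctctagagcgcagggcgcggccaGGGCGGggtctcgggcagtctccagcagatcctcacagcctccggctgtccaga
The Col5a1 window held 2 GC boxes and no CCAAT box, and the Col5a3 window held 3 GC boxes and 1 CCAAT box. A window was found for 29 of the 38 genes. The GC box was in 62.1% of the 29 and in 35.7% of all 32851 windows of the table, the CCAAT box in 37.9% and 37.4%, and the TATA box, searched as TATAAA on either strand, in 17.2% and 13.6%. The collagen shares used the first window listed for each gene, and the other shares used every window, whether or not its gene was expressed. The 2 sets are therefore unlike, and their difference was not tested. These matches describe letters and were not tied to any measured binding.

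Collagen I, the main fibril of bone, skin and tendon, was not called in either fit. Col1a1 had 23048 and 27594 CPM in WT and 21838 and 21075 CPM in Phf2 KO. Both Phf2 KO libraries were below both WT libraries, but the log2 fold change of -0.24 had an interval from -0.66 to 0.18. The second chain, Col1a2, had 20314 and 22082 CPM in WT and 20534 and 19415 CPM in Phf2 KO, and its groups overlapped. Collagen I trimers hold more of the alpha 1 than of the alpha 2 chain. Per length, the ratio of Col1a1 to Col1a2 was 2.10 and 2.31 in WT, against 1.97 and 2.01 in Phf2 KO. These ratios depend on the merged exon lengths used, 6.563 kb for Col1a1 and 12.145 kb for Col1a2. In CPM the levels lay closer, so the ratios do not give the proportion of the chains.

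Col3a1, the homotrimeric collagen of distensible tissue, had 11792 and 12536 CPM in WT and 9980 and 10366 CPM in Phf2 KO. Its groups did not overlap and its log2 ratios were -0.24 and -0.27. The log2 fold change of -0.26 had an interval from -0.59 to 0.07, and its adjusted p was 0.999, or 0.304 with the number in the fit (edgeR). Col11a1, a chain that joins collagens II and V in fibrils, had 659 and 941 CPM in WT and 605 and 922 CPM in Phf2 KO. These levels followed the replicate number rather than the genotype. Summed over the 11 fibrillar genes, the level was 64445 and 71795 CPM in WT and 59908 and 58070 CPM in Phf2 KO. In the remaining fibrillar genes Col11a2, Col24a1 and Col27a1 the groups overlapped, with log2 fold changes of 0.30, 0.24 and -0.19.

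Basement membrane collagens gave sums in the other direction, with 4996 and 5932 CPM in WT and 6537 and 6317 CPM in Phf2 KO (the plot of class sums). Most of this sum came from Col4a1 and Col4a2, whose chains form the collagen IV trimer of most basement membranes. The genes of the class did not share a direction, as 4 of the 8 had log2 fold changes above 0 and 4 below. Their median was -0.167, beside -0.165 for the fibrillar genes. Col4a1 had 2234 and 2623 CPM in WT and 2874 and 2735 CPM in Phf2 KO, and Col4a2 had 2374 and 2892 CPM in WT and 3203 and 3140 CPM in Phf2 KO. In both genes the Phf2 KO libraries were above the WT libraries, with wider ratios in replicate 1 (0.36 and 0.43 on the log2 scale) than in replicate 2 (0.06 and 0.12). The log2 fold changes of 0.21 ± 0.13 and 0.27 ± 0.14 (SE) were not called in either fit, with edgeR adjusted p of 0.289 and 0.133 when the number was a term.

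The chains moved together between libraries: per length, Col4a1 was between 0.846 and 0.914 times Col4a2 in the 4 libraries. The 2 genes lie head to head on chromosome 8 and their annotated ends overlap by 22 bases. The window below is shown because it holds both starts. It is chr8:11312555-11312854 on the plus strand of NCBIM37, read from RefSeq's entry for Col4a2, and Col4a1 starts within it at base 11312826 of the chromosome and runs the other way. Capitals mark GC boxes and the CCAAT box on either strand.
Col4a2: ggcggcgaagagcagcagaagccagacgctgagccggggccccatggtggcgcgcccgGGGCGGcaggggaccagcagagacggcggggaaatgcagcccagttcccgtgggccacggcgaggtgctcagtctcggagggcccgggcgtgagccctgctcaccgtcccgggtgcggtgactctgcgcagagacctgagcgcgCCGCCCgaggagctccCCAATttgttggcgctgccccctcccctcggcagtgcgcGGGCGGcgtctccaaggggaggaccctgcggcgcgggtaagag
This window held 3 GC boxes and 1 CCAAT box. A CCAAT box was found in 4 of the 7 basement membrane windows, or 57.1%, and a GC box in 5, or 71.4%.

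Col4a5, an X-linked chain that pairs with Col4a6 or with Col4a3 and Col4a4, had 220 and 241 CPM in WT and 277 and 273 CPM in Phf2 KO. The groups did not overlap. Its log2 fold change of 0.25 ± 0.09 (SE) had an unadjusted p of 0.0434 in edgeR, and an adjusted p of 0.0401 with the number in the fit. Col4a6, which lies head to head with it at a distance of 1308 bases, had 4.02 and 3.85 CPM in WT and 3.04 and 2.54 CPM in Phf2 KO. Its log2 fold change was -0.50 and was called in neither fit. The low-level pair Col4a3 and Col4a4, head to head with 71 bases between them on chromosome 1, had between 1.16 and 5.13 CPM in all libraries and fold changes of -0.45 and -0.41, not called.

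Of the multiplexins, the basement membrane collagens with heavily interrupted helices, Col15a1 was called lower with the number in the fit. It had 113 and 120 counts in WT and 56 and 72 counts in Phf2 KO, and the mean CPM in Phf2 KO was 61.2% of that in WT. The groups did not overlap, and the log2 fold change was -0.71 ± 0.19 (SE), with an unadjusted p of 0.0173 and an adjusted p of 0.0124 with the number. Col18a1, which carries the endostatin fragment, was more abundant, between 154 and 173 CPM, and had a log2 fold change of 0.07 with an interval from -0.17 to 0.31.

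**Figure D3:**
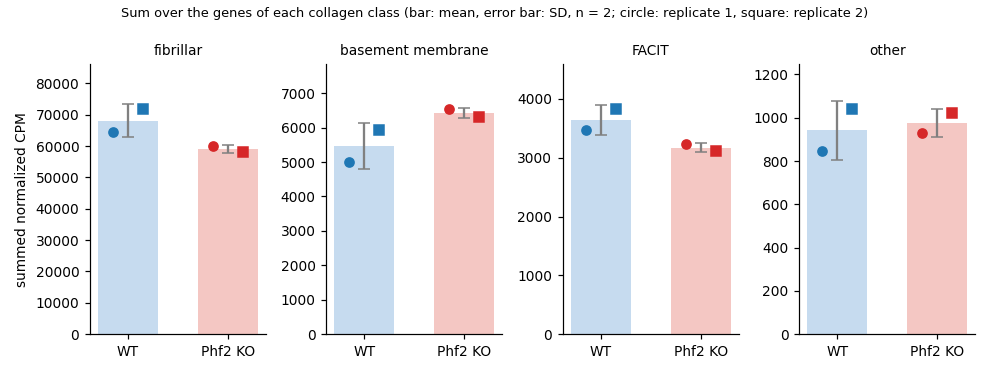
Summed TMM-normalized CPM of the fibrillar, basement membrane, FACIT and other collagen genes in each library, each class on its own linear axis. Points are single libraries, bars are group means and error bars the SD (n = 2), and basement membrane sums were higher in both Phf2 KO libraries (6537 and 6317) than in both WT libraries (4996 and 5932). Most of the basement membrane sum came from Col4a1 and Col4a2, and 4 of the 8 genes had log2 fold changes below 0.

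Among FACIT collagens, Col14a1 was lower in Phf2 KO within each replicate number. Col14a1, a chain found on fibrils of skin and tendon, had 324 and 238 CPM in WT and 210 and 144 CPM in Phf2 KO. The groups did not overlap, the log2 ratios were -0.63 and -0.72, and the mean in Phf2 KO was 63.0% of that in WT. The log2 fold change of -0.67 ± 0.24 (SE) had an unadjusted p of 0.0457 in edgeR, and with the number in the fit the adjusted p was 1.11e-12. Its start has no window in the sequence table.

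Col12a1, the most abundant FACIT gene and a partner of Col14a1 in dense connective tissue, had 2865 and 3260 CPM in WT and 2731 and 2689 CPM in Phf2 KO. Its log2 fold change of -0.18 had an interval from -0.49 to 0.14 and was called in neither fit. Col9a2, a chain of the collagen IX that coats cartilage fibrils, was at 19 and 38 counts in WT and 26 and 65 counts in Phf2 KO. The highest value was in Phf2 KO replicate 2 and the groups overlapped. Its log2 fold change of 0.81 ± 0.53 (SE) was the highest of the 34, and ranged from 0.15 without Phf2 KO replicate 2 to 1.31 without WT replicate 2. It had an edgeR adjusted p of 0.999, or 0.0647 with the number in the fit. The other 4 FACIT genes tested, Col9a3, Col16a1 (between 267 and 318 CPM), Col19a1 and Col20a1, had log2 fold changes between -0.10 and 0.32 and were not called. The class sum was 3463 and 3825 CPM in WT and 3225 and 3115 CPM in Phf2 KO.

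In the remaining class, Col28a1, a collagen with von Willebrand factor A domains known from peripheral nerve, had 27.3 and 19.0 CPM in WT and 36.3 and 30.0 CPM in Phf2 KO. Both Phf2 KO libraries were above both WT libraries. The log2 fold change of 0.52 ± 0.22 (SE) had an unadjusted p of 0.0672 in edgeR, and with the number in the fit the adjusted p was 9.47e-06.

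Col8a1, a short-chain network collagen, was the most abundant of this class at 628 and 685 CPM in WT and 699 and 698 CPM in Phf2 KO. On the log2 scale it differed by 0.09, with an interval from -0.17 to 0.35. Its partner Col8a2, with between 119 and 179 CPM, had a log2 ratio of -0.19 in each replicate number and was called in neither fit. Col7a1, the anchoring fibril collagen, had between 39.4 and 44.6 CPM. The transmembrane collagens Col23a1 and Col25a1 and Col26a1 had at most 4.98 CPM and log2 fold changes between -0.51 and -0.13, not called.

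The second comparison asked how the collagen genes differed between libraries numbered 2 and 1, with genotype as a term. Of the 34, 11 were called higher in number 2 and 2 lower, or 32.4% and 5.88%, where 12.6% and 13.6% of all genes were called (edgeR, adjusted p under 0.1). The 11 were the fibrillar genes Col2a1, Col5a3, Col11a1, Col11a2, Col24a1 and Col27a1, together with Col4a3, Col8a2, Col9a2, Col10a1 and Col25a1. The 2 lower were Col14a1 and Col28a1. DESeq2 with both terms called 8 higher and 1 lower, Col14a1, where it called 3.50% and 6.58% of all genes. With the number alone in the fit, edgeR called 6 higher and 0 lower, where 3.24% and 7.33% of all genes were called. By Xist and Ddx3y, the libraries numbered 1 were female and those numbered 2 male. With 1 library for each group and number, differences that go with sex, embryo, culture or handling cannot be told apart.

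The widest differences were in Col2a1 and Col10a1. Col2a1, the main fibrillar chain of cartilage, had 28 and 542 counts in WT and 75 and 645 counts in Phf2 KO. This corresponded to 1.16 and 20.9 CPM in WT and 3.62 and 26.8 CPM in Phf2 KO. Replicate 2 was 18.0 times replicate 1 in WT and 7.41 times in Phf2 KO, with a log2 difference of 3.38 ± 0.16 (SE) and an edgeR adjusted p of 7.20e-97. This SE and p came mainly from a spread shared across genes. The log2 differences of Col2a1 itself were 4.17 in WT and 2.89 in Phf2 KO, further apart than the SE conveys. The genotype difference of Col2a1 was 0.47 on the log2 scale, with an interval from -3.39 to 4.32, and 0.62 with the number in the fit (edgeR adjusted p = 0.000840). Its log2 ratios of Phf2 KO to WT were 1.64 in replicate 1 and 0.36 in replicate 2. They lay further apart than the SE of 0.145 in that fit conveys.

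Col10a1, the short-chain collagen of hypertrophic cartilage, had 8.80 and 107 CPM in WT and 27.1 and 84.8 CPM in Phf2 KO. Replicate 2 was 12.2 times replicate 1 in WT and 3.13 times in Phf2 KO, and the log2 difference was 2.52 ± 0.10 (SE; edgeR adjusted p = 7.46e-143). Here too the SE and p came mainly from other genes, and the log2 differences were 3.61 in WT and 1.64 in Phf2 KO. Between genotypes the direction was opposite in the replicate numbers. Phf2 KO was above WT in replicate 1, by 1.62 on the log2 scale, and below it in replicate 2, with -0.34. The fold change was therefore -0.05 without the number and 0.38 with it, the second called at an edgeR adjusted p of 0.00159. That call carried an SE of 0.09 although the ratios had opposite directions. It does not show a difference that held in both replicate numbers. Col10a1 lies inside Nt5dc1, which runs on the opposite strand and had between 5.28 and 7.05 CPM in the 4 libraries.

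The start of Col10a1 is shown because, after Col2a1, which has no window in the table, its level differed most between the replicate numbers. It is chr10:34109537-34109836 on the plus strand of NCBIM37, from RefSeq. Capitals mark the TATA box.
Col10a1: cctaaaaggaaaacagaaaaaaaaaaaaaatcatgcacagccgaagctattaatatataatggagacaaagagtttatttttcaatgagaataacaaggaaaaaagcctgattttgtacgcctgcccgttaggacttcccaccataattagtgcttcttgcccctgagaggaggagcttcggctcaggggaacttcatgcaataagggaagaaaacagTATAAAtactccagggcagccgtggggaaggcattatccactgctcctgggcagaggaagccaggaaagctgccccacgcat
The window held 1 TATA box and neither of the others. A TATA box was in 5 of the 29 collagen windows and in none of the 7 basement membrane windows.

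**Figure D4:**
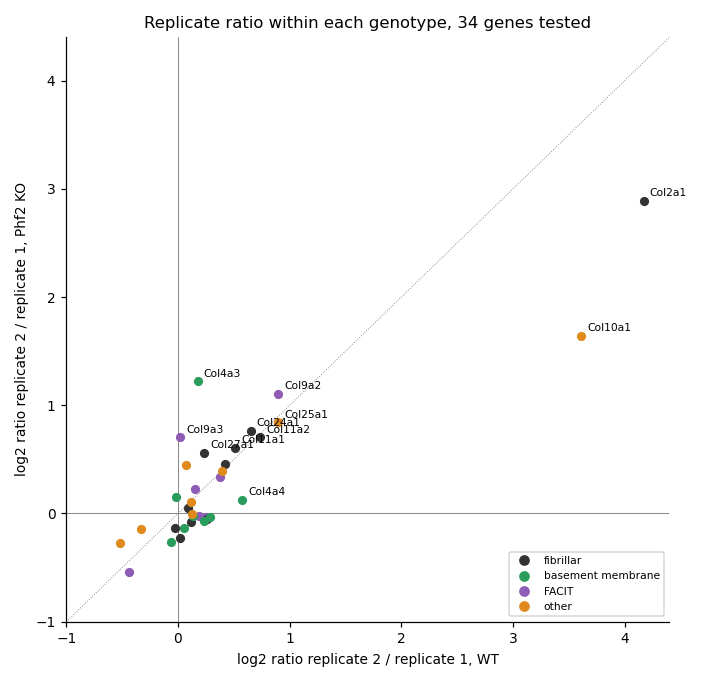
Log2 ratio of replicate 2 to replicate 1 for the 34 collagen genes tested, WT on the horizontal and Phf2 KO on the vertical axis, from TMM-normalized CPM. Each point is a gene coloured by class, the dotted line marks equal ratios, and Col2a1 (4.17 in WT, 2.89 in Phf2 KO) and Col10a1 (3.61 and 1.64) stand apart from the rest.

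Markers of cartilage cells were examined beside these genes. The 6 listed markers summed to 12.3 and 19.5 CPM in WT and 9.31 and 14.9 CPM in Phf2 KO, and 2 of the 6 were higher in replicate 2 in both groups. Sox9, the transcription factor of cartilage, had 7.68 and 8.71 CPM in WT and 6.03 and 5.99 CPM in Phf2 KO, and was called lower in Phf2 KO with the number in the fit (edgeR adjusted p = 0.0650). Acan, the cartilage proteoglycan, had between 4 and 14 counts, and Matn1 and Hapln1 between 1 and 8. Comp, a matrix protein also made by tendon cells, had 3.19 and 8.94 CPM in WT and 2.27 and 7.53 CPM in Phf2 KO. The part of cartilage cells, and of the macrophage RNA that was higher in replicate 1, in the differences between replicate numbers was not tested.

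The other genes called higher in number 2 differed by less. Col9a2 was 1.86 and 2.15 times as high in WT and Phf2 KO, Col11a2 1.66 and 1.63 times, Col24a1, a fibrillar chain of bone and eye, 1.57 and 1.70 times, and Col11a1 1.43 and 1.52 times. Col25a1, a transmembrane collagen with between 12 and 30 counts, was 1.86 and 1.80 times as high. With both terms in the fit, some genes were called for genotype as well as for number. The share of all genes called for both was not computed, so their count is not read as a result. Col2a1, Col9a2 and Col10a1 were called higher in Phf2 KO and in number 2, although Col10a1 was lower in Phf2 KO in replicate 2. Col14a1 was called lower in both, Col5a3 lower in Phf2 KO and higher in number 2, and Col28a1 the other way round.

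Genes that make, process, join and bind collagen were read from the same fits, as a list of 36, of which 33 passed the filter. Mia3, a collagen export receptor, was listed at 0 in each library. Whether its RNA was absent or its reads were not assigned to it cannot be told from the counts. Colgalt2 and Itga2 had at most 7 counts. With genotype alone, edgeR called 0 of the 33 higher and 0 lower at an adjusted p of 0.1. At an unadjusted p under 0.05 it gave 0 higher and 6 lower, where all genes gave 1.54% and 2.67%. Without Phf2 KO replicate 1 or WT replicate 2 the lower count was 1, and without WT replicate 2 the higher count was 5. DESeq2 called 0 higher and 1 lower, Loxl2 (background 0.0623% and 0.337%). With the number in the fit 5 were called higher and 7 lower, or 15.2% and 21.2%, beside 5.77% and 5.20% of all genes. The median log2 fold change of the list without the number was 0.05, beside 0.01 over all genes.

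Of the modifying enzymes, Plod2, which hydroxylates telopeptide lysines used in cross-links, had 192 and 202 CPM in WT and 104 and 147 CPM in Phf2 KO. The prolyl hydroxylase chain P4ha3 had 47.8 and 58.3 CPM in WT and 34.9 and 41.6 CPM in Phf2 KO. Both were called lower with the number in the fit (edgeR adjusted p of 4.57e-13 and 1.30e-05), whereas Ppib, a prolyl isomerase, was called higher, at 64.2 and 85.2 CPM in WT and 92.6 and 92.9 CPM in Phf2 KO. The other 11 modifying and folding genes tested, Serpinh1 among them, the collagen chaperone with between 3024 and 3597 CPM, were not called.

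Of 7 procollagen processing genes, 3 were called lower with the number and 0 higher, beside 5.20% and 5.77% of all genes. Adamts2, the main remover of procollagen N-propeptides, had 738 and 837 CPM in WT and 591 and 634 CPM in Phf2 KO. Adamts3 and Tll1 were also lower, from at most 155 counts. Bmp1, which removes C-propeptides, was between 371 and 532 CPM and was not called.

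Cross-linking enzymes were divided. Loxl2 had 774 and 686 CPM in WT and 492 and 532 CPM in Phf2 KO, with a log2 fold change of -0.51 ± 0.11 (SE), and Loxl4 had 6.85 and 9.44 CPM in WT and 3.62 and 6.03 CPM in Phf2 KO. Both were called lower with the number in the fit (edgeR adjusted p of 5.03e-06 and 0.000343), and Loxl1 was called higher (0.0732). Lox itself, with between 3729 and 4378 CPM, had a log2 fold change of 0.05. Among 7 collagen receptors tested, 6 had fold changes above 0, where 51.2% of all genes did. Of the 7, 3 were called higher with the number (background 5.77%), namely Itga1, Itga10 and Ddr1. Ddr1, a receptor tyrosine kinase for collagen, had 178 and 210 CPM in WT and 233 and 241 CPM in Phf2 KO.

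For comparison, the main chains of the microfibrillar collagen VI had log2 fold changes of -0.47 (Col6a1), -0.52 (Col6a2) and -0.96 (Col6a3). All 3 were called lower with the number in the fit and not without it. Col5a1, at -0.52, lay within that range, and its difference from the collagen VI chains was not tested.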

How the data were processed

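RNA-seq counts of 2 WT and 2 Phf2 KO libraries were analysed. The authors used Trim Galore for trimming, bowtie2 to take out ribosomal RNA, STAR for alignment to mm9 (described as reverse stranded) and featureCounts to assign single-end reads to genes. The deposited values are raw counts per gene. Tool versions and the annotation release are not given in the sources used here. The authors' DESeq2 table (fold changes, standard errors and p-values) was not used.

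Genes were filtered with filterByExpr, scaled by TMM and tested with edgeR 4.0.16 (glmQLFit, glmQLFTest; R 4.3.3), and p-values were adjusted by Benjamini-Hochberg over the 13668 genes tested (threshold 0.1). Intervals are 95%. CPM and RPKM were computed from the counts, the latter with merged exon lengths of the NCBIM37 annotation. Alternatives were the replicate number as a block, DESeq2 1.42.0, limma-voom 3.58.1, other scalings, filters and thresholds, and leaving out each library. With 2 libraries against 2, an exact two-sided permutation test cannot give a p below 0.333, so class sums were not tested. Figures used Matplotlib 3.10.9.

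The members and lists were chosen with earlier results of these data known. Values were named for the 10 most abundant members, members called in either fit or with an unadjusted p under 0.05, the 3 highest and 3 lowest fold changes, and partner chains; other members and list genes named for their role were chosen after their values were seen. Whether the numbers pair the libraries was checked: across 11556 genes (mean count 50 or more), the log2 difference between replicates 2 and 1 in WT and that in Phf2 KO had a Pearson's r of 0.850 (genes are not independent), and Xist and Ddx3y split by number. The labels state no pairing, so results lead with the unblocked fit. The scripts were tested on simulated data. The neural markers are not reported here.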

Additional observations from a re-analysis of the deposited data

Results flagged for a closer look

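Col10a1 was singled out because its ratio of Phf2 KO to WT had opposite directions in the replicate numbers. The log2 ratio was 1.62 in replicate 1, from 212 counts in WT and 562 in Phf2 KO. It was -0.34 in replicate 2, from 2779 counts in WT and 2038 in Phf2 KO. With 1 library for each group and number, the difference between these ratios was not tested.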

How the results depend on the processing

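No collagen gene was called between genotypes without the replicate number under the other scalings and filters, the edgeR likelihood ratio test or limma-voom (0 higher and 0 lower in each case). The thresholds of 0.05 and 0.01 were applied to the main fit, which called 0 at 0.1, so they could give no other count. DESeq2 called 2 lower, Col5a1 and Col5a3, and 1 lower gene of the biosynthesis and receptor list, Loxl2. The block on the replicate number, for which the labels state no pairing, called 5 higher and 4 lower collagen genes, and 5 higher and 7 lower genes of the list. It left 1 residual degree of freedom, and the common dispersion fell from 0.0451 to 0.00363. Between replicate numbers, a fit with the number alone called 6 higher and 0 lower collagen genes, and DESeq2 with both terms called 1 lower, Col14a1. Leaving out libraries in the fit with both terms left no residual degree of freedom and was not run.

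Over 18 named collagen genes and their alternatives, 208 of 216 fold changes kept their direction. Apart from leaving out libraries, the alternatives refit the same 4 libraries, and some genes were named for their fold change. The count is therefore not independent support. Col10a1 reversed to 0.63 with limma-voom and 0.38 with the replicate block. Its fold change ranged from -1.09 to 2.65 when single libraries were left out, and it reversed without Phf2 KO replicate 1 (0.55) and without WT replicate 2 (2.65). Col11a1 ranged from -0.40 to 0.20, reversing without the same libraries, and Col2a1 from -1.60 to 3.69, reversing without WT replicate 1 or Phf2 KO replicate 2. Of the others, Col28a1 ranged from 0.26 to 0.81 and Col9a2 from 0.15 to 1.31 without a change of direction. The cause was not tested. A fit that leaves a group with 1 library assumes that it varies like the others. At 2 libraries a group, genes with few counts such as Col9a2 and Col25a1 were measured least precisely, and the limit of detection set by 3 counts covers counting error only.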
